A study of Mus musculus with 39 samples.

Results

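The nuclear long noncoding RNAs Malat1, Neat1, Miat, Sox2ot, Pantr1, Pvt1 and Dleu2 were taken from a list of names and made up 7 of the 24421 genes counted in nuclear RNA of mouse neocortex. All 7 were present in the table of every batch and exceeded the mean of 5 normalized counts required for testing. Nuclei were isolated with 2 techniques and compared. In INTACT, nuclei carrying a tag on their membrane were captured on antibody-coated magnetic beads, and in FANS they were sorted by flow cytometry for the fluorescence of the same tag. RNA was sequenced from 10000 nuclei per library in 3 batches, each from a distinct biological source, with 4 FANS and 4 INTACT libraries in batch 1, 7 and 4 in batch 2, and 7 and 5 in batch 3. Chromatin accessibility was measured with ATAC-seq on 50000 nuclei per library, in 3 technical replicates per technique of a single source.

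Every library of both techniques came from adult mice with the same alleles, Arc creERT2 (TG/WT) and, on 1 or both chromosomes (M/WT or M/M), R26 CAG-Sun1-sfGFP-Myc, that had received tamoxifen and then gone through a social interaction test. Recombination by the tamoxifen-dependent Cre is driven by the promoter of Arc, a gene induced by neuronal activity, so that tagged nuclei are those of cells in which this promoter was active, and the labels call them activated neuronal nuclei. Markers of other cell types were counted in every library as well. The summed normalized count of 14 oligodendrocyte markers was 1813 to 16746 across libraries, beside 8502 to 11457 for 10 markers of excitatory neurons, and no marker of these lists was at 0 in every library of a batch. By the study's methods, RNA integrity was high in batch 1 and lower in batches 2 and 3. The batches also differed in transcripts of the sex chromosomes. Xist, the RNA that coats the inactive X chromosome of females, had a median normalized count of 129551 in batch 1, 12.7 in batch 2 and 24.9 in batch 3, and Ddx3y of the Y chromosome was at 0 in all 8 libraries of batch 1 and had medians of 646 and 496 in batches 2 and 3. Source, sex and RNA integrity therefore cannot be told apart when batch 1 is compared with batches 2 and 3. Batches 2 and 3 shared the pattern of Xist and Ddx3y and the lower integrity, and came from different sources.

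Reads on genes numbered 4205665 to 11028713 per library, and 73.6 to 87.5% of the uniquely aligned reads fell outside gene features. Between 314026 and 762630 reads of a library belonged to Malat1, 6294 to 13493 to Miat, 213 to 2045 to Neat1, 45 to 441 to Sox2ot, 124 to 376 to Dleu2, 100 to 253 to Pvt1 and 32 to 69 to Pantr1. Values below are normalized counts, which are reads divided by 1 size factor per library, and are comparable only inside a batch, since each batch was normalized on its own. Log2 fold changes (log2FC) were taken on log2(normalized count + 1), and positive values stand for INTACT above FANS. Genes with a limma p-value under 0.05 after Benjamini-Hochberg adjustment over all genes tested were called, and “higher” or “lower” below refers to such calls. The labels do not say that libraries of a batch came from separate animals, so that these p-values measure the spread between libraries, which may be technical.

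Malat1 is a long nuclear RNA concentrated in nuclear speckles, bodies rich in splicing factors, and is among the most abundant transcripts of neurons. Neat1, transcribed from the neighbouring gene, is the scaffold of paraspeckles, bodies that assemble around its long isoform and hold RNA-binding proteins. Miat, also named Gomafu, is retained in the nuclei of neurons and binds splicing regulators, whereas Sox2ot, Pantr1, Pvt1 and Dleu2 are better known for the genes beside or within them.

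Among the 7 RNAs the log2FC of Malat1 differed most between batches, and its locus is shown to place the accessible region upstream of it. The single exon of Malat1 covers 6983 bases at chr19:5795690-5802672 on the minus strand (mm10), and Neat1 ends 22036 bases upstream of it at chr19:5824708-5845480 on the same strand. The 300 bases around the start site of Malat1 (chr19:5802623-5802922, minus strand, RefSeq on GRCm38.p6) ran from 250 bases before it to 50 bases after it and are printed 5' to 3' with the searched motifs in capitals. The second sequence is the 300 bases around the median summit of the highest ATAC peak of Malat1 (chr19:5803485-5803784, minus strand).
Malat1 promoter: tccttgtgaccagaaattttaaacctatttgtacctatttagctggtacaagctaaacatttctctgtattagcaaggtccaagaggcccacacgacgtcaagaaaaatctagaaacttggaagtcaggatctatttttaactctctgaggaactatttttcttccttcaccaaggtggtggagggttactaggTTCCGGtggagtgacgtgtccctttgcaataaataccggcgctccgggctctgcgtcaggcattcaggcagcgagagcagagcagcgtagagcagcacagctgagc
Malat1 peak summit: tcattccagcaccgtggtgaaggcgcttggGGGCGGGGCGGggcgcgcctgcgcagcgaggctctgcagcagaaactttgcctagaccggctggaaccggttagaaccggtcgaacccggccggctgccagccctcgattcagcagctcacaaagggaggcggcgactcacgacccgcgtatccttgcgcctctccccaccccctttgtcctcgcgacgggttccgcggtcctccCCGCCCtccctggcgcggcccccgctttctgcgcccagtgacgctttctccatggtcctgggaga
The capitals mark the ETS core (CCGGAA) on the antisense strand 56 bases before the start site in the promoter, and 3 GC boxes (GGGCGG), 1 of them antisense and 2 that share a base, in the summit window. GC content was 47.0% in the promoter and 68.7% at the summit, beside a median of 52.7% over 32851 RefSeq promoters. On either strand, the ETS core was found in 14.9% of these promoters and in 6.23% of 123595 peak windows of the same length, and the GC box in 35.7% and 14.4%. A match is only the presence of these letters. Of 5 other motifs searched, CCAAT was found in 37.4% of promoters, TATAAA in 13.6%, TGANTCA in 7.81%, CGCATGCG in 1.87% and TGACGTCA in 1.79%, and none of them lay in either window of Malat1.

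Malat1 held more reads on genes than any other gene in all libraries except 3 INTACT libraries of batch 1, in which the ribosomal RNA precursor Rn45s ranked above it. In batch 1 its normalized count was 575152, 574981, 678290 and 497525 in the 4 FANS libraries and 404436, 367528, 379684 and 410990 in the 4 INTACT libraries. Every INTACT library was below every FANS library, and the ratio of the means was 0.672. The log2FC was -0.57 (SE 0.066, limma adjusted p = 2.69e-07). In bulk libraries, fewer nuclei of a cell type and less RNA per nucleus cannot be told apart.

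In batch 2, Malat1 was at 447320 to 694092 (median 504704, n = 7) in FANS and at 531081, 490813, 577103 and 561382 in INTACT. The ranges overlapped, with the highest value in a FANS library, and the log2FC of 0.07 did not pass the threshold (SE 0.11, limma adjusted p = 0.833). In batch 3 it was at 291534 to 491565 (median 386106, n = 7) in FANS and at 484573, 444855, 483780, 552482 and 490438 in INTACT. Here 5 of 7 FANS libraries lay below every INTACT library, and the log2FC of 0.33 missed the threshold (SE 0.11, limma adjusted p = 0.129). It was called in batch 3 without FANS replicate 4 (log2FC 0.38, adjusted p = 0.0280) or without FANS replicate 7 (0.37, adjusted p = 0.0173), and by edgeR on the recovered reads (adjusted p = 0.0477).

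As a share of the reads on genes, Malat1 made up 7.73% ± 0.861 (SD, n = 4) in the FANS libraries of batch 1 and 5.32% ± 0.266 (SD, n = 4) in its INTACT libraries, a difference of -2.41 percentage points. The shares were 8.38% ± 1.24 (SD, n = 7) and 8.65% ± 0.583 (SD, n = 4) in batch 2, a difference of 0.275 points that was within the spread of either group. In batch 3 they were 7.74% ± 1.26 (SD, n = 7) and 9.53% ± 0.638 (SD, n = 5), a difference of 1.79 points. Leaving the reads of Rn45s out of the total gave 8.05% ± 0.929 and 5.64% ± 0.263 in batch 1, so that the gap stayed without that RNA.

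The gap in batch 1 depended on which reads formed the total. In that batch 81.9 to 84.3% of the uniquely aligned reads of FANS and 73.6 to 75.3% of those of INTACT lay outside gene features. As a share of all uniquely aligned reads, Malat1 was at 1.37, 1.31, 1.44 and 1.04% in FANS and at 1.32, 1.27, 1.34 and 1.47% in INTACT, and the groups overlapped. With all genes scaled by uniquely aligned reads, a choice made after seeing the data, the median log2FC over all genes was 0.64 in batch 1, and that of Malat1 was 0.07 (limma adjusted p = 0.426). Relative to the median of all genes, Malat1 was then at -0.56, beside -0.57 with the size factors. A scaling factor per library shifts all genes alike, so that this difference to the median is fixed by construction and is no separate evidence. Every direction given for batch 1, in gene lists as well, is relative to the other genes.

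**Figure D1:**
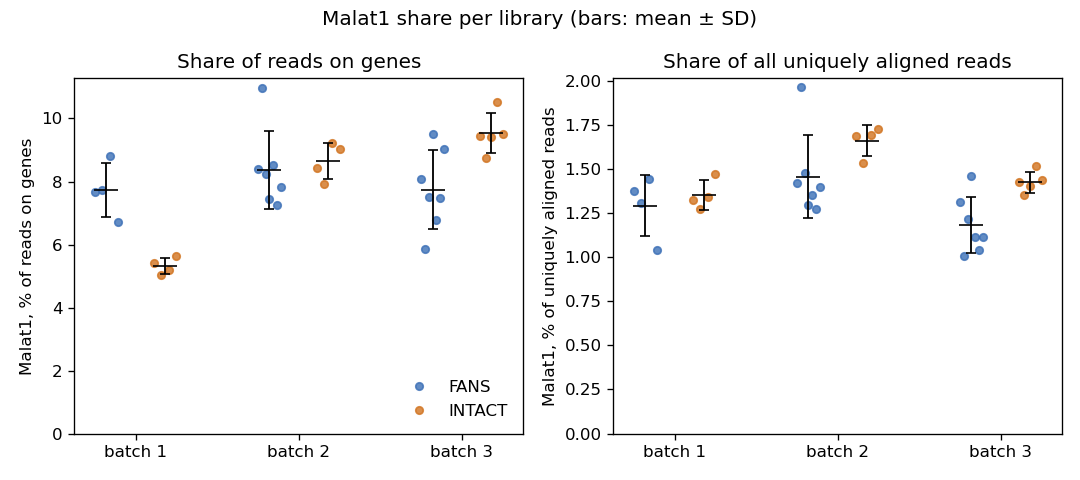
Malat1 per library as a percent of reads on genes (left axis) and as a percent of all uniquely aligned reads (right axis), for FANS and INTACT in each batch, with points for libraries and bars for mean ± SD. In batch 1 the INTACT points lie at 5.03 to 5.64% of reads on genes, below the FANS points at 6.71 to 8.82%, whereas the groups overlap on the right.

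Miat lies at chr5:112213228-112228948 on the minus strand, with 7 exon blocks of 8760 bases in all. It was the second most abundant RNA of the set and ranked between 13 and 36 among all genes in every library. In batch 1 its normalized count was 11542, 12058, 12520 and 11863 in FANS and 9188, 8804, 8536 and 8919 in INTACT. The groups did not overlap, the ratio of the means was 0.739, and the log2FC was -0.44 (SE 0.040, limma adjusted p = 4.92e-09). Miat thus moved in the same direction as Malat1 in batch 1, with a spread between libraries of 3.41% (CV, FANS) and 3.05% (CV, INTACT).

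In batch 2, Miat was at 8810 to 10049 (median 9571, n = 7) in FANS and at 9061, 9194, 9527 and 10692 in INTACT, and in batch 3 at 6590 to 8139 (median 7395, n = 7) in FANS and at 7705, 7579, 8486, 8465 and 8365 in INTACT. The groups overlapped in both batches and neither difference was called (log2FC 0.01, adjusted p = 0.977, and 0.12, adjusted p = 0.309, limma). As a share of uniquely aligned reads in batch 1, Miat was at 0.0249 to 0.0275% in FANS and at 0.0301 to 0.0319% in INTACT, which did not overlap in the opposite direction. With that scaling its log2FC in batch 1 was 0.20 (limma adjusted p = 0.00211), and -0.43 relative to the median of all genes.

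Whether the technique acted alike in the 3 batches was tested with an interaction term. The effect changed for Malat1 (limma F, adjusted p = 1.86e-04) and Miat (adjusted p = 1.75e-06), 2 of the 7 RNAs, beside 18.1% of the 14332 genes tested. For Malat1 the log2FC of batch 3 exceeded that of batch 1 by 0.90 (SE 0.159, adjusted p = 4.24e-05) and that of batch 2 exceeded it by 0.63 (SE 0.163, adjusted p = 0.0112). For Miat these differences were 0.56 (SE 0.0757, adjusted p = 5.07e-07) and 0.44 (SE 0.0780, adjusted p = 2.01e-04). Between batches 2 and 3, 0 of 14332 genes were called, and among the 7 RNAs the unadjusted p-values were 0.0824 to 0.648. With the scaling by uniquely aligned reads, which shifted all genes of batch 1, 10032 of 14354 genes passed this test, and Malat1 (adjusted p = 0.384) and Miat (adjusted p = 0.398) did not.

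**Figure D2:**
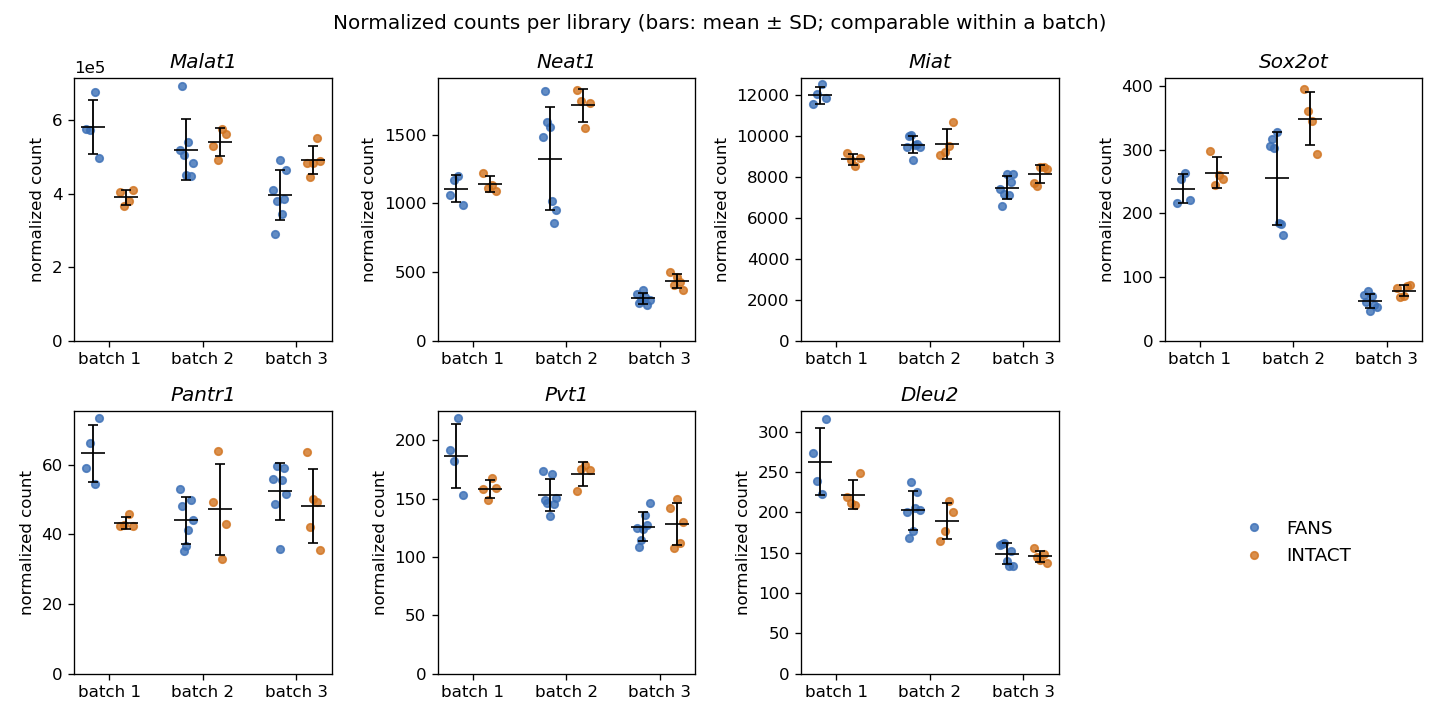
Normalized counts of the 7 RNAs per library (vertical axis from 0, one panel per RNA) for FANS and INTACT in each batch, with points for libraries and bars for mean ± SD. In batch 1 the INTACT points of Malat1, Miat and Pantr1 lie below all FANS points, and in batch 3 the INTACT points of Neat1 lie above all FANS points. Values are comparable only within a batch, and relative to uniquely aligned reads the log2FC of these 3 RNAs in batch 1 was 0.07, 0.20 and 0.10.

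Neat1 has a short transcript of 3185 bases and a long transcript of 20771 bases that share their start region, and the tables do not separate them. In batch 1 its normalized count was 1060, 1170, 1202 and 989 in FANS and 1220, 1114, 1136 and 1088 in INTACT. These values overlapped, and the log2FC of 0.05 was not called (SE 0.059, limma adjusted p = 0.574). Per 100 reads of Malat1, the neighbouring gene, there were 0.177 to 0.203 reads of Neat1 in FANS and 0.265 to 0.303 in INTACT of that batch, which did not overlap. The same ratio overlapped in batch 2 (0.188 to 0.345 and 0.268 to 0.356) and in batch 3 (0.0634 to 0.0939 and 0.0755 to 0.103).

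In batch 3, Neat1 was at 262 to 366 (median 294, n = 7) in FANS and at 497, 407, 462, 429 and 370 in INTACT. Every INTACT library was above every FANS library, the ratio of the means was 1.41, and the log2FC was 0.50 (SE 0.082, limma adjusted p = 8.51e-04). Relative to uniquely aligned reads, where the median of all genes was -0.05, the log2FC was 0.45 and was not called (adjusted p = 0.200).

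In batch 2, Neat1 separated the FANS libraries from each other. Its normalized count was 1487, 1816, 1591 and 1559 in FANS replicates 1, 2, 4 and 5 and 1018, 859 and 950 in FANS replicates 6 to 8, beside 1830, 1749, 1548 and 1728 in INTACT. Replicates 6 to 8 were the lowest of the batch, and the other 4 FANS libraries lay within or next to the INTACT range. The log2FC over all libraries was 0.42 (SE 0.14, limma adjusted p = 0.112), and without FANS replicates 6 to 8, left out after seeing the data, it was 0.09 (adjusted p = 0.653). Without FANS replicate 2 alone it was called (log2FC 0.505, adjusted p = 0.02). With the scaling by uniquely aligned reads, under which the median of all genes was 0.64 in batch 1 and 0.13 in batch 2, Neat1 was called in both batches (0.69, adjusted p = 1.34e-09, and 0.56, adjusted p = 0.0280).

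Sox2ot, which overlaps the stem cell factor gene Sox2 on the same strand, behaved alike in batch 2. It spans chr3:34560381-34677993 on the plus strand, with Sox2 at chr3:34649995-34652461 within an intron. Its normalized count was 305, 317, 303 and 328 in FANS replicates 1, 2, 4 and 5, 184, 183 and 166 in FANS replicates 6 to 8, and 395, 361, 346 and 294 in INTACT. Again FANS replicates 6 to 8 were the lowest. The log2FC was 0.50 (SE 0.15, limma adjusted p = 0.0899), and 0.15 without these 3 libraries (adjusted p = 0.529). It was called without FANS replicate 2 (log2FC 0.557, adjusted p = 0.0339) or FANS replicate 5 (0.565, adjusted p = 0.0394).

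In batch 1, Sox2ot was at 216, 254, 263 and 222 in FANS and at 298, 245, 260 and 253 in INTACT, with overlap and a log2FC of 0.15 (SE 0.088, limma adjusted p = 0.208). In batch 3 it was at 47.0 to 78.6 (median 60.1, n = 7) in FANS and at 82.3, 67.9, 70.2, 85.2 and 87.3 in INTACT, also with overlap (log2FC 0.35, SE 0.13, limma adjusted p = 0.215). Sox2 itself was at 60.5 to 115 in FANS and 74.7 to 106 in INTACT of batch 1 and was not called in any batch, with limma adjusted p-values of 0.616, 0.540 and 0.970. With the scaling by uniquely aligned reads, Sox2ot was called in batch 1 (0.79, adjusted p = 2.46e-08) and batch 2 (0.63, adjusted p = 0.0230).

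With the 3 batches in 1 model and batch as a term, Neat1 (log2FC 0.35, SE 0.0793, limma adjusted p = 0.00172) and Sox2ot (0.34, SE 0.0891, adjusted p = 0.00582) were higher in INTACT, 2 of the 7 RNAs, beside 8.66% of the 14332 genes tested that were called higher. Without FANS replicates 6 to 8 of batch 2 they were at 0.25 (adjusted p = 0.00380) and 0.23 (adjusted p = 0.0187). The other 5 RNAs were not called, with -0.00 for Malat1, -0.07 for Miat, -0.17 for Pantr1, 0.00 for Pvt1 and -0.11 for Dleu2. The effect of the technique on Neat1 did not pass the test of a change between batches (adjusted p = 0.138), but passed it without FANS replicates 6 to 8 (adjusted p = 0.00303).

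**Figure D3:**
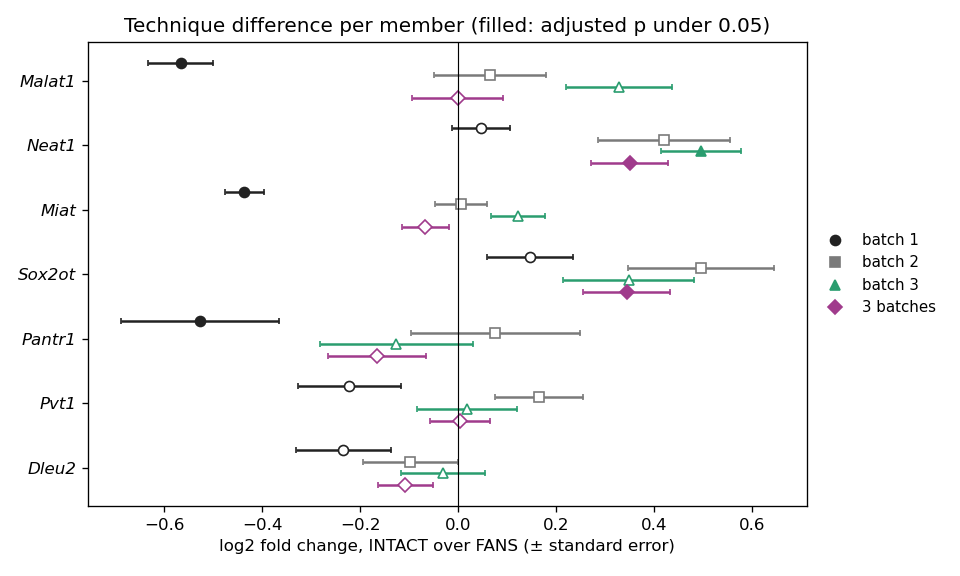
Log2 fold change of INTACT over FANS (horizontal axis, with standard error) for each RNA in batches 1 to 3 and with the 3 batches in 1 model, filled where the limma adjusted p-value is under 0.05. Malat1, Miat and Pantr1 are filled below 0 in batch 1, and Neat1 is filled above 0 in batch 3 and in the joint model, where Sox2ot is filled too. Relative to uniquely aligned reads the first 3 values turn to 0.07, 0.20 and 0.10.

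Markers of oligodendrocytes, the myelin-forming glia, moved with Neat1 and Sox2ot in batch 2. The summed normalized count of the 14 markers was 10681, 9578, 11900 and 14044 in FANS replicates 1, 2, 4 and 5, 7284, 8312 and 8400 in FANS replicates 6 to 8, and 16457, 16746, 13948 and 14365 in INTACT. The 3 FANS libraries with the lowest Neat1 and Sox2ot thus also had the lowest sums. In batch 3 the sum was 1813 to 2459 in FANS and 2234 to 2760 in INTACT, with overlap, and in batch 1 it was 6574 to 8230 in FANS and 10532 to 11119 in INTACT, without overlap, whereas Neat1 overlapped there.

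Of the 14 oligodendrocyte markers, 10 were higher in INTACT in batch 1, beside 18.6% of all genes. Among them were Mal (log2FC 1.07), a myelin membrane protein, and Pdgfra (1.90), the receptor that marks oligodendrocyte precursors. Pdgfra had low means of 4.17 in FANS and 17.1 in INTACT. In batch 2, 5 of the 14 were higher, beside 0.834% of all genes, among them Mal (0.81) and Olig1 (0.74), a transcription factor of the lineage. In batch 3 none was called, with 14 tested and a median log2FC of 0.24. Of 12 astrocyte markers 9 were higher in batch 1, led by the connexin Gja1 (2.07), 2 of 11 in batch 2, Slc1a3 (0.93) and Apoe (0.57), and 0 of 11 in batch 3. The part of these cell types in the values of the 7 RNAs was not tested.

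**Figure D4:**
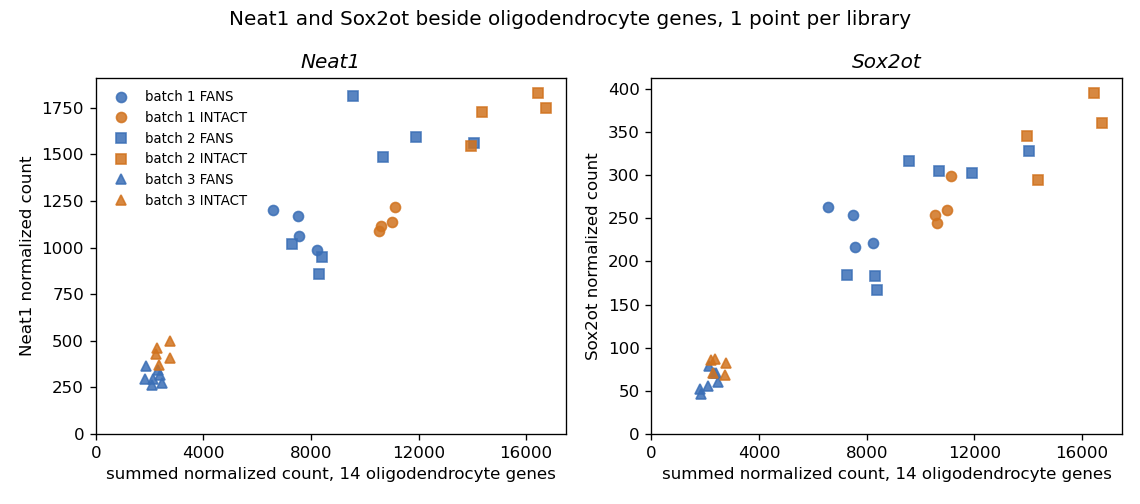
Normalized count of Neat1 (left) and Sox2ot (right) against the summed normalized count of 14 oligodendrocyte markers, 1 point per library, with batches by shape and techniques by colour. Within batch 2, 3 FANS squares lie apart at a sum of 7284 to 8400, with Neat1 at 859 to 1018 and Sox2ot at 166 to 184.

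Pantr1 is transcribed from chr1:42648200-42694825 on the minus strand, divergently from the neuronal transcription factor gene Pou3f3, whose start lies 943 bases away. It was the least covered RNA of the set. In batch 1 its normalized count was 59.2, 66.2, 54.5 and 73.4 in FANS and 42.4, 42.8, 45.8 and 42.3 in INTACT. All INTACT libraries lay below all FANS libraries, the ratio of the means was 0.685, and the log2FC was -0.53 (SE 0.16, limma adjusted p = 0.0119).

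In batch 2, Pantr1 was at 35.3 to 53.0 (median 44.1, n = 7) in FANS and at 49.2, 64.1, 32.9 and 42.9 in INTACT, and in batch 3 at 35.9 to 59.8 (median 55.6, n = 7) in FANS and at 63.8, 42.2, 50.2, 49.3 and 35.5 in INTACT. The techniques overlapped in both batches, with log2FC values of 0.08 (SE 0.17) and -0.13 (SE 0.16) that were not called. Relative to the median of all genes under the scaling by uniquely aligned reads it stood at -0.54 in batch 1, and at 0.10 unadjusted for that median (limma adjusted p = 0.587). Pou3f3 was at 320 to 451 in FANS and 345 to 401 in INTACT of batch 1 and was not called in any batch (limma adjusted p = 0.629, 0.755 and 0.813). The divergent pair therefore differed in that Pantr1 was called in batch 1 and Pou3f3 was not, but the difference between them was not tested.

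Pvt1 lies at chr15:62037986-62260215 on the plus strand and starts 47625 bases downstream of the oncogene Myc. Its normalized count in batch 1 was 192, 183, 219 and 153 in FANS and 158, 149, 168 and 159 in INTACT, overlapping because of FANS replicate 4. The log2FC was -0.22 (SE 0.10, limma adjusted p = 0.101), and it was called without that library (-0.31, adjusted p = 0.0127). In batch 2, Pvt1 was at 135 to 174 (median 149, n = 7) in FANS and at 157, 175, 179 and 175 in INTACT, and in batch 3 at 109 to 147 (median 125, n = 7) in FANS and at 142, 108, 149, 112 and 130 in INTACT. In batch 2, 3 of 4 INTACT libraries lay above all FANS libraries, but the log2FC of 0.16 (SE 0.090, adjusted p = 0.398) was not called, nor was that of 0.02 (SE 0.10) in batch 3. With the scaling by uniquely aligned reads it was called in batch 1 (0.42, adjusted p = 0.00228) and batch 2 (0.30, adjusted p = 0.0373). Myc was low, at 12.2 to 20.6 in FANS and 18.6 to 28.4 in INTACT of batch 1, and was not called in any batch.

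Dleu2 lies at chr14:61602836-61682373 on the minus strand, and the precursors of miR-15a and miR-16-1, which restrain the cell cycle and cell survival, lie in its introns. The mature microRNAs are shown because they share a seed, bases 2 to 8, given in capitals (RefSeq, GRCm38.p6, minus strand, chr14:61631936-61631957 and chr14:61632075-61632096).
mmu-miR-16-5p: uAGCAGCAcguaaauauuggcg
mmu-miR-15a-5p: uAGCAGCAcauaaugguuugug
The reads come from libraries of long RNA, so that counts at Mir15a and Mir16-1 are not levels of the mature microRNAs. Mir15a was at 5.74 to 19.6 and Mir16-1 at 20.3 to 45.0 over all libraries, and neither was called in any batch.

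The promoters of Dleu2 (chr14:61682324-61682623) and Miat (chr5:112228899-112229198) are shown on the minus strand, beside that of Malat1 above, with the same motifs in capitals.
Dleu2 promoter: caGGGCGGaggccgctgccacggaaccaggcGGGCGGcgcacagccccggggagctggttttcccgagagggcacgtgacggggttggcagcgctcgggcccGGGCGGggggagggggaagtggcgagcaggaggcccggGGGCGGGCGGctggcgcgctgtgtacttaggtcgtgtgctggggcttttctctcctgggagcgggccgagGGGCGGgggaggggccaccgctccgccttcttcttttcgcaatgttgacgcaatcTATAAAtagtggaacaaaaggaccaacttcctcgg
Miat promoter: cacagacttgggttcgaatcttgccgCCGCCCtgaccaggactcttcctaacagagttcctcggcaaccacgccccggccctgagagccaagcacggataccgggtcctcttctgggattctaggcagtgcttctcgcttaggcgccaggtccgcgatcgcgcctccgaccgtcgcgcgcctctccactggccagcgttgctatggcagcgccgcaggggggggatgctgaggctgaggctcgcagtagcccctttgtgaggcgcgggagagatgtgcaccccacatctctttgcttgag
The window of Dleu2 held 6 GC boxes between 248 and 40 bases before the start site, of which those at -110 and -106 overlap, and the letters TATAAA 16 bases after it. The window of Miat held 1 GC box, on the antisense strand 224 bases before the start. GC content was 69.0% for Dleu2 and 64.3% for Miat, both above the 47.0% of Malat1, and RefSeq promoters were matched for these 3 of the 7 RNAs.

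The normalized count of Dleu2 in batch 1 was 274, 239, 223 and 316 in FANS and 219, 212, 209 and 249 in INTACT. The 3 lowest values were INTACT libraries, but the groups overlapped and the log2FC of -0.23 was not called (SE 0.098, limma adjusted p = 0.0635). It was called by edgeR on the recovered reads (adjusted p = 0.0433) and when FANS replicate 2 (-0.28, adjusted p = 0.0482), FANS replicate 3 (-0.31, adjusted p = 0.0132) or INTACT replicate 4 (-0.29, adjusted p = 0.0427) was left out. In batch 2, Dleu2 was at 168 to 238 (median 204, n = 7) in FANS and at 165, 177, 214 and 200 in INTACT, and in batch 3 at 133 to 162 (median 152, n = 7) in FANS and at 155, 145, 140, 149 and 137 in INTACT. Both overlapped, with log2FC values of -0.10 and -0.03 that were not called. With the scaling by uniquely aligned reads it was 0.40 in batch 1 and called (adjusted p = 0.00144). Trim13 and Kcnrg, on the opposite strand at the same locus, were not called in any batch, and the strand setting of the counting is not given in the sources used here, so that reads of overlapping genes may be shared.

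In batch 1, 3 of the 7 RNAs were lower in INTACT relative to other genes, beside 17.5% of the 15114 genes tested, and 0 were higher, beside 18.6%. None of them changed by at least 1.5-fold on the log2 scale, beside 7.97% of all genes called at that size, but Malat1 did without FANS replicate 4 (log2FC -0.639) or INTACT replicate 4 (-0.592), and Pantr1 did without FANS replicate 3 (-0.596). In batch 2, 0 of 7 were called, beside 0.309% called lower and 0.834% called higher (0.128% at 1.5-fold), and Neat1 and Sox2ot had an unadjusted limma p-value under 0.05. In batch 3, 1 of 7 was higher, Neat1, beside 1.18%, and 0 were lower, beside 0.519% (0.36% at 1.5-fold). The normalized counts of the techniques did not overlap for 3 of the 7 in batch 1, beside 33.6% of all genes, for 0 in batch 2, beside 2.99%, and for 1 in batch 3, beside 1.59%. The median log2FC of the 7 was -0.23, 0.08 and 0.12 in batches 1, 2 and 3, beside 0.01, -0.00 and -0.00 over all genes tested.

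Compared per length, as RPKM over the reads on genes and the spliced transcript, the order of the 7 levels over the 31 libraries was led by Malat1 (median 11551, range 7197 to 15717) and Miat (174, 133 to 196, on its longest transcript). These ranges do not overlap each other or those of the other RNAs. Neat1 was at 46.9 (15.9 to 91.3) on its short transcript, and its median was 7.19 on the long one, so that its place in the order depended on the transcript. Dleu2 (17.4, 15.4 to 25.2), Pantr1 (14.5, 9.63 to 22.8), Sox2ot (10.0, 3.05 to 21.1) and Pvt1 (median 7.98 on its longest and 10.5 on its shortest transcript) followed. Each of these neighbours in the order overlapped the next. The median of Pvt1 was above that of Sox2ot on its shortest transcript and below it on its longest. The order of these medians changed with the batch. Dleu2, Pantr1 and Sox2ot were at 18.1, 12.2 and 11.5 in batch 1, Sox2ot (16.6) was above Pantr1 (13.1) in batch 2, and Pantr1 (18.1) was above Dleu2 (16.8) in batch 3, where Sox2ot was at 4.63. Levels set across batches come from tables that were normalized separately, and the RPKM used here does not depend on the size factors.

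Similar patterns across libraries were sought among the 9611 genes whose mean normalized count reached 50 in each batch, after subtracting the mean of each batch and technique. The genes most like Malat1 over the 31 libraries were the kinesin gene Kif21b (Pearson's r = 0.900), the noncoding Snhg11 (0.899) and Ewsr1 (0.899), which encodes an RNA-binding protein. For Miat they were Scaf4 (0.836), Bzrap1 (0.828) and Igfn1 (0.824). Malat1 and Miat had an r of 0.711 with each other.

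For Neat1 the most alike were Sept4 (0.847), the oligodendrocyte marker Mobp (0.764) and Ube2d1 (0.761), and for Sox2ot they were Qk (0.786), which encodes an RNA-binding protein of myelinating glia, Gatm (0.766) and Mbp (0.734), the gene of myelin basic protein. Neat1 and Sox2ot had an r of 0.676 with each other. Without FANS replicates 6 to 8 of batch 2 the values of Neat1 fell to 0.634, 0.384 and 0.454 and those of Sox2ot to 0.486, 0.397 and 0.272, whereas those of Malat1 were 0.903, 0.893 and 0.890 and those of Miat 0.847, 0.851 and 0.879. Pantr1 was most like Pcdh11x (0.684), Ttc33 (0.651) and Pde7b (0.639), Pvt1 most like Zswim8 (0.727), Nop9 (0.714) and Ppfia4 (0.697), and Dleu2 most like Hgf (0.645), Pdzk1 (0.636) and Pou3f3 (0.613). These values are descriptions, since libraries share batches, depth and cell makeup.

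Other long noncoding RNAs were examined beside the 7. Of 24 in the tables, Hotairm1 was at 0 in every library, and 19 were tested in batch 1, of which 9 were lower and 3 higher in INTACT with a median log2FC of -0.28, beside 17.5% lower and 18.6% higher over all genes of that batch. The lowest among those called were Kcnq1ot1 (log2FC -1.03, limma adjusted p = 5.30e-10), which silences imprinted genes, Dlx6os1 (-0.90, adjusted p = 6.18e-05) of interneurons and the imprinted Meg3 (-0.82, adjusted p = 1.92e-12). The higher ones were 2900097C17Rik (0.48), Rian (0.35) and Mirg (0.25), and Rian and Mirg come from the same imprinted locus as Meg3. In batch 2, 1 of 18 was lower, Rmst (-0.47, adjusted p = 0.0188), and in batch 3, 0 of 18 were called. The count of RNAs that fell among the 7 and among these 19 was thus 3 and 9 in batch 1, and the difference between the lists was not tested.

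The proteins of the bodies that Neat1 and Malat1 occupy were followed through their transcripts. Of 26 genes of paraspeckle proteins, 16 were lower and 2 higher in INTACT in batch 1 (median log2FC -0.25), beside 17.5% and 18.6% of all genes. The largest changes were Rbm4b (-0.74), Taf15 (-0.48) and Hnrnph3 (-0.46), which encode RNA-binding proteins. Of the proteins known to build paraspeckles, chosen after their values were seen, Sfpq (-0.37, limma adjusted p = 1.18e-07) and Pspc1 (-0.32, adjusted p = 2.13e-05) were lower and Nono (0.24, adjusted p = 0.0261) was higher, and the other higher gene was Rbm3 (0.46). None of the 26 was called in batch 2 or 3, where their medians were -0.06 and 0.02 (20 and 12 of them below 0).

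Of 24 genes of nuclear speckle proteins, 9 were lower and 5 higher in INTACT in batch 1 (median log2FC -0.02), again beside 17.5% and 18.6% of all genes. The largest changes were Pnn (-0.56, limma adjusted p = 4.23e-08), Srsf4 (-0.51, adjusted p = 0.00145) and Sf3b1 (0.40, adjusted p = 2.62e-08), which act in splicing. In batch 2, 0 were called, and in batch 3, 1 was higher, Srrm2 (0.45, adjusted p = 1.83e-04), whose protein builds the core of speckles. Its log2FC was -0.02 in batch 1 and 0.27 in batch 2 (limma adjusted p = 0.801 and 0.0536). Of 11 genes at the loci of the 7 RNAs, 2 were higher in batch 1, among them Ltbp3 (0.27, adjusted p = 0.0330), 0 were lower, and none was called in the other batches.

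Frmd8, 5494 bases beyond Neat1, was at 69.5 to 84.6 in FANS and 85.9 to 104 in INTACT of batch 1, without overlap, and was not called (log2FC 0.30, limma adjusted p = 0.0746). The nearest genes in the tables beside Miat, 1700028D13Rik and Cryba4, were at 0 in all libraries of batch 1.

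Among other cell type markers in batch 1, where 18.6% of all genes were higher and 17.5% lower, excitatory neurons had 3 higher and 3 lower of 10, among them Slc17a6 (log2FC 0.54), Slc17a7 (0.50), both vesicular glutamate transporters, and Camk2a (-0.37). Inhibitory neurons had 5 higher and 1 lower of 9, among them the neuropeptides Npy (2.20), Sst (1.45) and Vip (1.02). Npy had low means of 4.70 in FANS and 18.9 in INTACT, and the ranges of Vip overlapped. The lower marker was Adarb2 (-0.62), and Reln, with means of 601 in FANS and 624 in INTACT, was not called. The summed count of the inhibitory list overlapped, at 874 to 1071 in FANS and 978 to 1192 in INTACT. Markers common to neurons had 5 higher and 2 lower of 8, led by Nefl (0.49), Syt1 (0.44) and Eno2 (0.43), the latter also higher in batch 2 (0.24). Microglia had 0 higher and 1 lower of 5 tested among 10 markers, P2ry12 (-1.01), with a median log2FC of 0.12. Among those too low to test, C1qa, C1qb, C1qc and Trem2 had INTACT above FANS without overlap, and Tmem119 overlapped. The summed microglial count overlapped, at 287 to 384 in FANS and 306 to 341 in INTACT. Vascular cells had 3 higher and 1 lower of 4 tested among 10, among them Vtn (1.42), Pdgfrb (0.81) and Tek (-0.73). Vtn had a mean of only 3.82 in FANS and 9.53 in INTACT. Malat1, Miat and Pantr1 were lower in the batch in which these lists moved most, and whether the makeup of the nuclei had a part in this was not tested.

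In the ATAC-seq, peaks within 3 kb of a start site were found in all 6 lists for 6 of the 7 RNAs, beside 60.1% of 26180 annotated genes. The lists held 99514 to 130088 peaks per library. Sox2ot had no peak near its start site in any list, with the nearest peak 7490 to 11640 bases away and 8 to 11 peaks over the gene. A 1 kb window left 5 RNAs with a peak in all 6 lists, without Neat1 and Sox2ot. Neat1 missed it only in INTACT replicate 1, where the nearest peak was 1153 bases from a start site. In the other lists that distance was 0 to 46 bases.

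The highest peak of Malat1 had its summit between positions -1034 and -868 from the start site in the 6 lists, and a second peak lay between -2063 and -1988. The printed promoter window lay outside these peaks, whose nearest edge was 438 to 655 bases from the start site. The summit of Neat1 lay at -1302 to -1300 and that of Pvt1 at -54 to 37. For Dleu2 it was at -424 to -207. The summit of Miat lay inside the transcribed region, at 1333 to 1341 in FANS and at 179, 206 and 1349 in INTACT replicates 1, 2 and 3.

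The height of a peak was taken as the fold enrichment at its summit over the local background, as the peak caller wrote it. At Malat1 it was 11.2, 9.23 and 10.5 in FANS and 8.19, 7.64 and 8.89 in INTACT, and the groups did not overlap. At Miat it was 8.87, 8.93 and 9.24 in FANS and 7.67, 6.12 and 7.45 in INTACT. At Pantr1 it was 12.3, 11.5 and 12.1 in FANS and 10.8, 9.94 and 11.2 in INTACT. Both also had INTACT lower throughout. At Miat, the heights of INTACT replicates 1 and 2 were taken at summits of 179 and 206, away from those of FANS at 1333 to 1341. The highest peak of Pantr1 had its summit at -958 to -878, near the start site of the divergent Pou3f3.

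At Neat1 the heights were 10.1, 9.42 and 9.70 in FANS and 10.4, 8.71 and 9.30 in INTACT. At Pvt1 they were 12.0, 11.1 and 12.1 in FANS and 10.5, 10.1 and 11.5 in INTACT, and at Dleu2 8.66, 8.16 and 9.36 in FANS and 7.99, 7.87 and 8.73 in INTACT. These 3 RNAs overlapped between the techniques, with ratios of the means of INTACT over FANS of 0.974, 0.913 and 0.939, beside 0.799 for Malat1, 0.786 for Miat and 0.890 for Pantr1. Heights without overlap were lower in INTACT at 3 of 6 RNAs, beside 53.7% of 15747 genes with a peak in all lists, and higher at 0, beside 1.82%. Without INTACT replicate 3, 5 RNAs did not overlap, with Pvt1 and Dleu2 added. Without FANS replicate 2 (Pvt1 added) or INTACT replicate 1 (Neat1 added), 4 did not. The 53.7% is for 3 libraries against 3, and groups separate more easily with fewer libraries. No share over all genes is given for these omissions, so that their counts are not a result about these RNAs. The median ratio over the 15747 genes was 0.856, so that all genes together were lower in INTACT. With 3 technical replicates against 3 the smallest exact permutation p is 0.1, and no test was made.

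**Figure D5:**
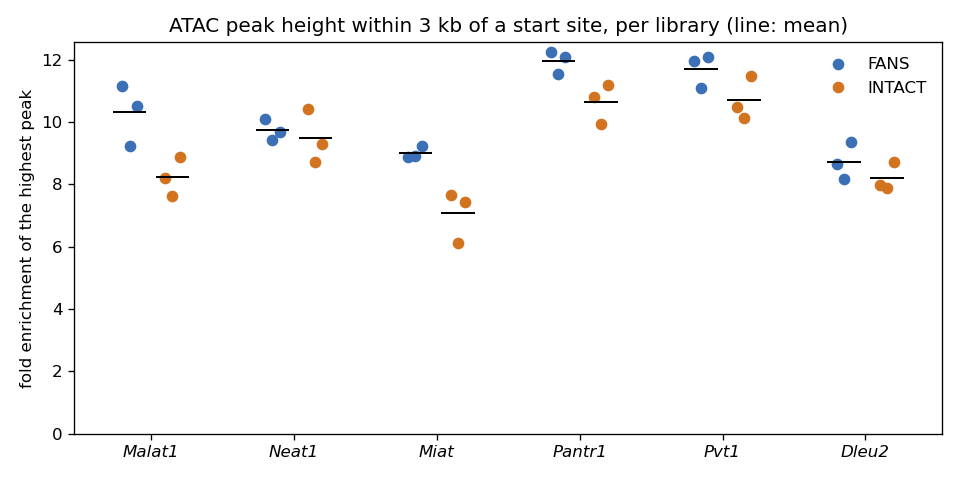
Fold enrichment of the highest ATAC peak within 3 kb of a start site (vertical axis from 0) for 6 RNAs, with 1 point per library and a line at the mean of 3 libraries. INTACT points lie below all FANS points at Malat1, Miat and Pantr1 and overlap them at Neat1, Pvt1 and Dleu2.

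The 3 of 6 RNAs without overlap were a share near the 53.7% of all genes, and the ratio of Pantr1 (0.890) was above the median of all genes. With the -log10 p-value as height, 4 RNAs were lower without overlap, Malat1, Neat1, Miat and Dleu2, and Pantr1 overlapped. No share over all genes is given for this height, so that the count is not a result about these RNAs. The depth behind the peak lists is unknown.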

How the data were processed

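Nuclear RNA of FANS and INTACT isolates was read with the NuGEN Ovation SoLo kit, single end. Per the labels and the study's methods, the authors aligned reads to mm10 with STAR, collapsed duplicate reads that shared a molecular identifier, assigned unique alignments to genes with HTSeq and divided the counts by 1 DESeq size factor per library within each batch. The deposited normalized counts are thus a signal proportional to reads, and whole reads were recovered from them (100% of values up to 100 reads, within 0.011 normalized counts). The strand setting of the counting is not given in the sources used here. Of the batch 2 libraries in the labels (8 FANS, 5 INTACT), FANS replicate 3 and INTACT replicate 5 are not analysed here. The 5 summary rows of each table were left out of totals and tests, and the row of reads outside features served only for the share of uniquely aligned reads.

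Genes averaging 5 or more normalized counts were tested on log2(normalized count + 1), per batch, by limma 3.58.1 (R 4.3.3, trend), over the 3 batches with batch as a term, and with a technique by batch interaction, with Benjamini-Hochberg adjustment over all genes. Alternatives included edgeR 4.0.16 and DESeq2 1.42.0 on the recovered reads, a pseudocount of 5, a minimum mean of 50 or none, other scalings, a replicate block and leaving out each library. Scripts were tested on simulated data.

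ATAC-seq reads were aligned by the authors with Bowtie2, and peaks were called per library with MACS2, which wrote the deposited fold enrichment (a ratio of the summit to the local background), −log10 p and −log10 q values and a score. A peak belonged to an RNA where it reached within 3 kb of an annotated start site.

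Genes beside the 7 RNAs were named by fixed rules: the 3 calls of largest size in batch 1 and up to 3 calls in the other batches for each list, the nearest genes of each RNA, and the 3 genes most correlated with it. Names beyond these rules, such as the higher RNAs beside Meg3, were chosen after their values were seen. Some named genes are not reported here. The members and gene lists were chosen with earlier results of these data known. Same-group libraries differed by more than sampling noise (chi-square per gene 1.776 to 16.32, 70 pairs), so none was counted as a duplicate.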

Additional observations from a re-analysis of the deposited data

Results flagged for a closer look

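In 2 of 42 groups of 4 to 7 libraries, 1 library stood apart from the rest of its group, where chance gives about 1 group in 20. For Malat1 in batch 2, FANS replicate 2 was at 694092 normalized counts and the other 6 FANS libraries were at 447320 to 540923, a gap of 0.621 of the group's range. The same library had 11.0% of its reads on genes in Malat1. For Pantr1 in batch 1, INTACT replicate 3 was at 45.8 and the other 3 INTACT libraries were at 42.3 to 42.8, a gap of 0.852 of the range, which came to few reads.

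The difference between the techniques changed between batches for Malat1 (limma F over the interaction terms, adjusted p = 0.000186) and for Miat (adjusted p = 1.75e-06). In normalized counts, Malat1 was lower in every INTACT library than in every FANS library of batch 1, and overlapped between the techniques in batches 2 and 3, where its log2 fold change was 0.07 and 0.33. Miat followed the same order with -0.44, 0.01 and 0.12. Batch 1 differed from the others in biological source, RNA integrity and the sex shown by Xist and Ddx3y, which cannot be told apart.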

How the results depend on the processing

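Of 942 values of single RNAs under alternatives, 866 kept their direction and side of the threshold, 23 passed it newly, 3 lost it and 50 changed sign, of which 34 came from leaving out 1 library. Under scaling by uniquely aligned reads, added after seeing the data, the median log2 fold change of all genes became 0.64, 0.13 and -0.05 in batches 1, 2 and 3 and 0.19 over the 3 batches, and 5, 3, 0 and 5 of the 7 RNAs were called. Batch 1 then gave 0.0748 for Malat1, 0.205 for Miat, 0.101 for Pantr1, 0.416 for Pvt1, 0.404 for Dleu2, 0.688 for Neat1 and 0.785 for Sox2ot, with all but Malat1 and Pantr1 called. The RNAs called in batch 2 were Neat1, Sox2ot and Pvt1. Dleu2 gave 0.0388 in batch 2, Pvt1 in batch 3 gave -0.0285, and the 3 batches together gave 0.199 for Malat1, 0.133 for Miat, 0.0311 for Pantr1 and 0.091 for Dleu2. Calls over all genes under this scaling were 12252 in batch 1 (12088 higher, 164 lower) beside 5458 (2817 higher, 2641 lower), 1351 beside 170 in batch 2, 30 beside 246 in batch 3, 4959 beside 2309 over the 3 batches and 10032 beside 2598 for the interaction, and Pvt1 (adjusted p = 0.0211) and Dleu2 (adjusted p = 0.0391) passed the interaction test. As a share of all uniquely aligned reads, Malat1 differed by 0.0605 percentage points in batch 1, 0.205 in batch 2 and 0.245 in batch 3.

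edgeR called 2 RNAs in batch 3, with Malat1 added. The replicate numbers did not pair the libraries (correlation of same-numbered deviations -0.0937 to -0.0107 in batch 1, -0.21 to 0.0112 in batch 2 and -0.0384 to 0.284 in batch 3, with 1 pair, replicate 2 of batch 3, matching best by number). With the replicate block, 4, 0 and 3 RNAs and 5251, 3 and 1102 genes were called in batches 1, 2 and 3. Malat1 (0.376, limma adjusted p = 9.05e-09) and Miat (0.159, adjusted p = 0.00443) were added in batch 3, and in batch 2 the block gave -0.105 for Malat1 and -0.0307 for Miat. Other changes of sign were close to 0: Miat in batch 2 scaled by reads on genes (-0.0038), Malat1 over the 3 batches scaled by the other genes' reads (0.00127), Pvt1 over the 3 batches without FANS replicates 6 to 8 of batch 2 (-0.00342), and the share of Malat1 in batch 2 without these libraries (-0.109 percentage points). The cause was not tested.

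Leaving out 1 library gave 3 to 4 called RNAs in batch 1, 0 to 2 in batch 2, 1 to 2 in batch 3, and 2 to 2 over the 3 batches and for the interaction. Values ranged from -0.00472 to 0.0891 for Neat1 in batch 1, -0.0465 to 0.0331 for Miat and -0.0818 to 0.232 for Pantr1 in batch 2, -0.0399 to 0.0764 for Pvt1 in batch 3, and -0.036 to 0.0397 for Malat1 and -0.0178 to 0.0321 for Pvt1 over the 3 batches. Peak heights without overlap numbered 3 to 5 (5 without INTACT replicate 3), with no share over all genes given for these omissions. Calls over all genes in batch 2 were 85 with no filter, 369 by DESeq2, 21 to 333 leaving out 1 library (lowest without INTACT replicate 1) and 16 without FANS replicates 6 to 8, and in batch 3 they were 101 to 484 leaving out 1 library (101 without INTACT replicate 3, 114 without INTACT replicate 5, 441 without FANS replicate 7, 484 without FANS replicate 4). Pantr1, with 32 to 69 reads a library, and Sox2ot, with 45 to 441, are limited by depth.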
